A study of Rattus norvegicus with 14 samples.

Results

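The genes described here are 9 genes of the complement system: the proteases C1r, C1s, Masp1, Cfb and Cfd, the central component C3, and the inhibitors Cfi, Cd55 and Cd59. They were chosen by name from the 16816 gene symbols of a count table, at a time when results from the same counts were already known, the pattern of Masp1 over the 4 groups among them. The counts that guided the choice are those shown here, so the values of these 9 genes are a description, no p-value is given for them, and nothing is supported with them. All 9 symbols were in the table, 8 had counts, and 7 passed the filter on low counts in at least 1 comparison.

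RNA was sequenced from rat PCCL3 cells, a differentiated thyroid follicular cell line. PPFP cells were stably transfected with the myc-tagged human PAX8-PPARG fusion protein (PPFP), the product of a rearrangement found in thyroid carcinoma, and EV cells with the empty vector. Each line received 1 μM pioglitazone, a thiazolidinedione agonist of PPARG, or the DMSO vehicle for 16 hours, with 3 libraries in each of the 4 groups, which the series describes as independent experiments. All cells, EV cells included, grew in 5% serum with thyrotropin, insulin, transferrin and hydrocortisone. Whether each line was a clone or a pool, and which promoter drove the transgene, is not given in the sources used here. As there is 1 transfected line of each kind, an effect of PPFP and any other difference between the lines cannot be told apart.

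The 12 libraries held between 23724703 and 35240176 counts, and a level of 3 counts, taken as the limit that a count of 0 allows, corresponded to 0.081 to 0.127 CPM (counts per 1000000 counts, TMM-scaled) depending on the library. These limits cover counting error only. Replicates 2 and 3 of PPFP cells with pioglitazone were far closer to each other than any other pair of replicates, with a chi-square per gene of 1.7, where counting noise alone gives about 1 and the other pairs of a group gave 17.8 to 113. They differed by more than counting noise and were kept as separate libraries, but whether they came from separate cultures was not tested. The SDs and SEs of that group may therefore be too small, and results that use it were also computed with these libraries summed as 1 sample, a choice made after the data were seen. Pparg, whose rat gene can take up reads from the human fusion, averaged 1.61 ± 0.322 CPM (SD, n = 3) in the untreated EV libraries, while the untreated PPFP libraries averaged 53.6 ± 6.56 CPM. Pax8, the other fusion partner, was at 738 and 688 CPM. The summed level of 10 thyrocyte markers lay between 10200 and 14600 CPM in the 12 libraries. Of 12 macrophage and monocyte markers, 11 were in the table and summed to between 5.1 and 7.19 CPM, with 3 at 0 and Ptprc at no more than 1 count in any library. In bulk RNA, fewer cells of a type and less RNA per cell cannot be told apart.

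Complement is a cascade of serum proteases that ends in deposition of C3 fragments and in the membrane attack complex. In the classical pathway C1q activates C1r, which cleaves C1s, and C1s in turn cleaves C4 and C2. In the lectin pathway the MASP proteases take that place, and the Masp1 gene also encodes MASP-3, which converts the precursor of factor D to its active form. In the alternative pathway factor D, encoded by Cfd and also called adipsin for its abundance in adipocytes, cleaves factor B, encoded by Cfb, when that is bound to C3b. Cells protect themselves with the membrane proteins CD55 and CD59, and factor I, encoded by Cfi, degrades C3b. The liver is the main source of the serum proteins, although many other cells make some of them.

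**Figure D1:**
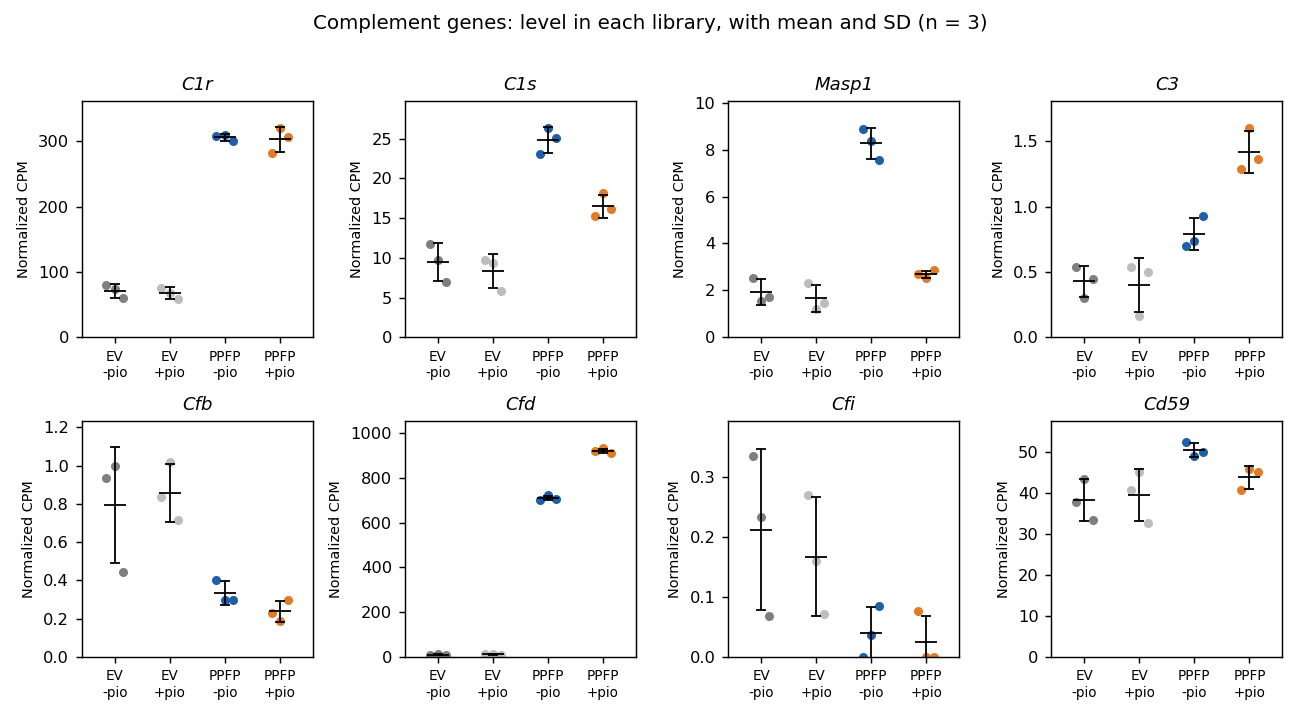
Normalized level (CPM, linear axis from 0) of 8 complement genes in each of the 12 libraries, with the mean and SD of the 3 libraries per group as bars; Cd55 had no count and is not drawn. Cfd, C1r and C1s were higher in every PPFP library than in every EV library, Cfb was lower, and Masp1 was at 8.26 CPM on average in the untreated PPFP libraries and at 2.69 CPM in the treated ones.

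Cfd had the widest range. It was at 9.71, 10.7 and 9.22 CPM in EV cells without pioglitazone and at 10.4, 11.3 and 8.79 CPM in EV cells with it. In PPFP cells it was at 702, 723 and 706 CPM without pioglitazone and at 920, 932 and 912 CPM with it. The EV groups overlapped, whereas both PPFP groups lay far above them and the PPFP libraries with pioglitazone all lay above those without. The log2 fold change in PPFP versus EV cells was 6.19 ± 0.11 (SE) without pioglitazone, 72.9-fold, and 6.53 ± 0.13 with it, 92.5-fold. By size it was the 46th highest log2 fold change of 10264 genes without pioglitazone and the 64th of 10291 with it.

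Because Cfd is a classical adipocyte gene, 9 adipocyte markers were summed. Their sum was 155 to 172 CPM in EV cells, 161 to 177 CPM in EV cells with pioglitazone, and, in the PPFP libraries, 245 to 287 CPM untreated against 470 to 576 CPM treated. The hormones leptin (Lep) and resistin (Retn) had no count in any library, and the fatty acid binding protein Fabp4 had at most 5. Most of the sum was the lipase Pnpla2, at 144, 217 and 403 CPM on average in EV cells, PPFP cells and PPFP cells with pioglitazone. The lipid droplet genes Plin1 (0.0561, 6.39 and 40.8 CPM) and Cidec (0.0561, 7.99 and 22 CPM) and the glycerol channel Aqp7 (0, 0.5 and 11.7 CPM) had the same order, whereas adiponectin (Adipoq) was at 2.13, 4.5 and 2.39 CPM. Their part in the Cfd values was not tested.

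C1r and C1s encode the paired proteases of the C1 complex, and their genes are neighbours in the RefSeq annotation of GRCr8, with no protein-coding gene between them. C1r was at 80.8, 73.6 and 59.4 CPM in EV cells and at 75.8, 68.5 and 58.6 CPM in EV cells with pioglitazone. In PPFP cells it was at 309, 310 and 300 CPM, and with pioglitazone at 283, 320 and 306 CPM. The separation was thus by cell line, and the groups with and without pioglitazone overlapped in both lines. The log2 fold change in PPFP versus EV cells was 2.12 ± 0.13 without and 2.19 ± 0.12 with pioglitazone. A long noncoding RNA annotated across C1r could share its reads, since the library kit did not mark strand.

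C1s was higher in PPFP cells too, but it differed from C1r with pioglitazone. It was at 11.7, 9.71 and 6.89 CPM in EV cells and at 9.72, 9.3 and 5.85 CPM in EV cells with pioglitazone. In PPFP cells it was at 23, 26.3 and 25.1 CPM without and at 15.3, 18.1 and 16.1 CPM with pioglitazone, and these groups did not overlap. The log2 fold change in PPFP versus EV cells was 1.41 ± 0.20 without and 1.02 ± 0.20 with pioglitazone.

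The number of C1s counts per 100 C1r counts within a library does not depend on how libraries are scaled, although it is no molar ratio, since gene length enters it. It was 14.4, 13.2 and 11.6 in EV cells and 12.8, 13.6 and 9.98 in EV cells with pioglitazone. In PPFP cells it was 7.44, 8.49 and 8.36, and with pioglitazone 5.43, 5.66 and 5.25. All PPFP libraries were therefore below all EV libraries, and the PPFP libraries with pioglitazone were the lowest.

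Masp1 was at 2.54, 1.54 and 1.71 CPM in EV cells and at 2.32, 1.22 and 1.47 CPM in EV cells with pioglitazone. In PPFP cells without pioglitazone it was at 8.88, 8.35 and 7.56 CPM, all above the EV libraries. In PPFP cells with pioglitazone it was at 2.68, 2.54 and 2.85 CPM, which is below all PPFP libraries without pioglitazone and above the 3 EV libraries with it. The log2 fold change in PPFP versus EV cells was 2.11 ± 0.22 without and 0.70 ± 0.26 with pioglitazone. Gene counts do not separate the MASP-1 and MASP-3 products of this gene.

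In GRCr8 the annotated span of Masp1 overlaps that of Rtp4, an interferon-inducible chaperone of receptor transport. Rtp4 is included here because of that overlap. Rtp4 was at 7.05 ± 0.874 CPM in the untreated and 7.31 ± 1.15 CPM in the treated EV libraries, and at 25.7 ± 1.41 CPM in the untreated and 13.9 ± 1.65 CPM in the treated PPFP libraries (SD, n = 3). Its groups thus had the same order as those of Masp1 in PPFP cells. Whether reads of these genes were shared in the rn4 annotation that was counted was not tested.

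C3, on which all 3 pathways converge, stayed low in every group. It had 16, 9 and 13 counts in EV cells, 20, 5 and 14 in EV cells with pioglitazone, 19, 20 and 22 in PPFP cells, and 34, 43 and 41 in PPFP cells with pioglitazone. In CPM this was 0.427 ± 0.118, 0.401 ± 0.209, 0.788 ± 0.123 and 1.42 ± 0.167 (SD, n = 3). The EV groups overlapped and the PPFP groups stood above them, highest with pioglitazone. The log2 fold change in PPFP versus EV cells was 0.89 ± 0.32 without and 1.83 ± 0.39 with pioglitazone. Of 10 hepatocyte markers, 9 were in the table, and they summed to 22.2 to 24.3 CPM in PPFP cells with pioglitazone and to 8.95 to 12.7 CPM in the other groups. Nearly all of this sum was haptoglobin (Hp), at 23.1 and 11.5 CPM on average in PPFP cells with and without pioglitazone, while 5 of the 9 had no more than 3 counts in any library. Its part in the C3 values was not tested.

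Cfb ran the other way. It had 28, 30 and 13 counts in EV cells, 31, 32 and 20 in EV cells with pioglitazone, 11, 8 and 7 in PPFP cells, and 6, 5 and 9 in PPFP cells with pioglitazone. Every PPFP library was below every EV library in CPM, with untreated means of 0.796 ± 0.305 CPM in EV and 0.332 ± 0.0623 CPM in PPFP. The log2 fold change was -1.23 ± 0.41 without and -1.80 ± 0.31 with pioglitazone. Factor D and its substrate factor B thus had opposite signs in both comparisons. The neighbouring gene in GRCr8, with no protein-coding gene between, is C2, which encodes the classical pathway counterpart of factor B and is described with the other complement genes.

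Of the inhibitors, Cd59 was the only one with a sizeable count. It was at 37.9, 43.5 and 33.4 CPM in EV cells, 40.7, 45.1 and 32.6 CPM in EV cells with pioglitazone, 52.4, 49 and 50.1 CPM in PPFP cells, and 40.7, 45.8 and 45 CPM in PPFP cells with pioglitazone. PPFP and EV cells did not overlap without pioglitazone and overlapped with it, with log2 fold changes of 0.42 ± 0.12 and 0.18 ± 0.13. RefSeq lists this rat gene as Cd59b.

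Cfi had 10, 7 and 2 counts in EV cells, 10, 5 and 2 in EV cells with pioglitazone, 0, 1 and 2 in PPFP cells, and 2, 0 and 0 in PPFP cells with pioglitazone, and it passed the filter in no comparison. Cd55 had no count in any of the 12 libraries, which allows a level of up to 0.081 to 0.127 CPM.

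A gene was called where its Benjamini-Hochberg adjusted p over all genes tested was under 0.05 in edgeR's quasi-likelihood test and its fold change was above 2. In PPFP versus EV cells without pioglitazone 7 of the 9 genes were tested. Of these, Cfd, C1r, Masp1 and C1s were called higher, against 7.27% of all genes tested, and Cfb was called lower, against 7.31%. Cfb passed the filter on low counts only through EV cells, where it was higher, in this comparison and with pioglitazone, so its calls carry no weight. At any fold change 6 of the 7 passed the adjusted p, Cd59 being the addition, against 45.2% of all genes. With pioglitazone, Cfd, C1r, C3 and C1s were called higher, against 9.30% of all genes, and Cfb lower, against 10.4%. C3 passed the filter there only through PPFP cells, where it was higher, so that its call carries no weight either. The same 5 were the genes that passed at any fold change, against 52.7%. The median log2 fold change of the 7 was 1.41 without and 1.02 with pioglitazone, beside 0.00164 and 0.0121 for all genes. All 9 genes were chosen with these counts known, so the other calls and the medians are a description too and support nothing. The call of Cfb without pioglitazone was lost in the fits that left out EV replicate 1, EV replicate 2 or any 1 of the 3 PPFP libraries, where its log2 fold change lay between -1.37 and -1.03, and also with DESeq2 (-1.24) and with the replicate number as a block (-1.21). The call of C1s with pioglitazone sat at the 2-fold limit and was lost at 0.79 without EV_pio replicate 3, at 0.92 without PPFP_pio replicate 2, at 0.97 with PPFP_pio replicates 2 and 3 as 1 sample and at 0.88 when libraries were scaled by their size alone, a scaling that moved the median of all genes to -0.12.

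**Figure D2:**
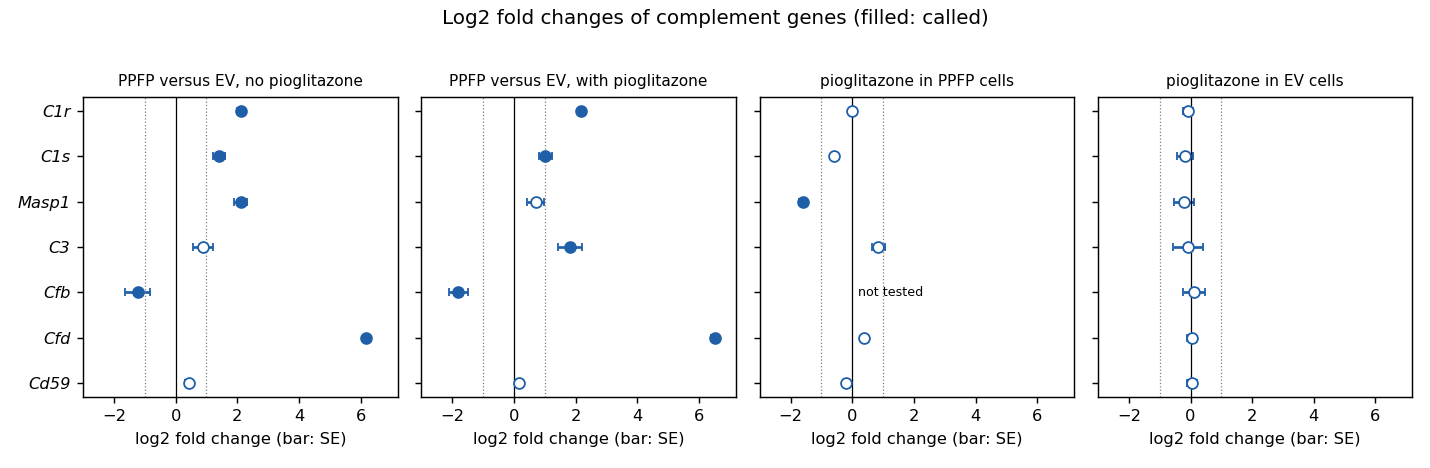
Log2 fold changes (points) with SE (bars) of 7 complement genes in the 4 pairwise comparisons; filled points were called (adjusted p under 0.05 and fold change above 2), and dotted lines mark 2-fold. In PPFP versus EV cells without pioglitazone the values run from -1.23 for Cfb to 6.19 for Cfd, and with pioglitazone in EV cells from -0.203 to 0.108.

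**Figure D3:**
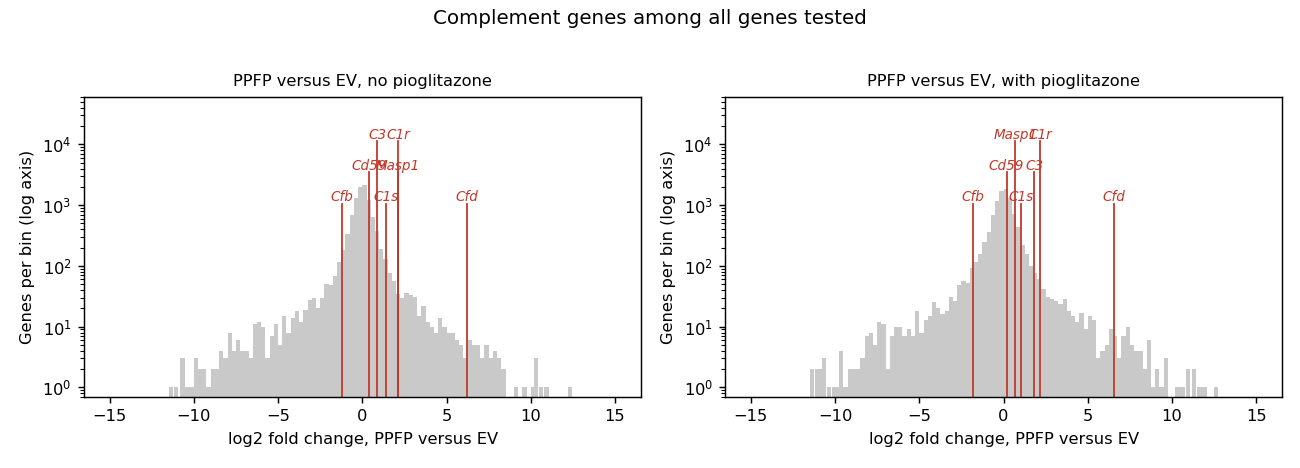
Number of genes (log axis) by log2 fold change in PPFP versus EV cells, in all genes tested without (10264) and with pioglitazone (10291), with 7 complement genes marked by lines whose heights carry no value. Cfd stands in the upper tail at 6.19 and 6.53, and Cd59 near the middle at 0.42 and 0.18.

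The promoters of 4 genes are shown to let their upstream sequence be read beside the values: Cfd and C1r, which were high in PPFP cells in both conditions, Masp1, which was high without pioglitazone, and C3, which was highest with it. Each is the 250 bases before the start of the gene in RefSeq (GRCr8), 5′ to 3′ on the gene's strand, and capitals mark the motif matches described after them. The positions are chr7:10465497-10465746 (- strand) for Cfd, chr4:159098763-159099012 (+ strand) for C1r, chr11:90839472-90839721 (+ strand) for Masp1 and chr9:2201340-2201589 (- strand) for C3.
Cfd: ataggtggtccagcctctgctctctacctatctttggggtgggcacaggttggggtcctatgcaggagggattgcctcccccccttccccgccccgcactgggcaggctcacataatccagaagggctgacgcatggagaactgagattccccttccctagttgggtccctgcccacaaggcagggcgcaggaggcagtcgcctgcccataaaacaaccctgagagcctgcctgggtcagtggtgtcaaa
C1r: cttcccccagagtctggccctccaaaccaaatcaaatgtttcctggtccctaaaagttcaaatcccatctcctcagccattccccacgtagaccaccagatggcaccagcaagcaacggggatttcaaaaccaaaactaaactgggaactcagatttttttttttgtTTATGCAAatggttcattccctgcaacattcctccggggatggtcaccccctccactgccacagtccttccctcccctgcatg
Masp1: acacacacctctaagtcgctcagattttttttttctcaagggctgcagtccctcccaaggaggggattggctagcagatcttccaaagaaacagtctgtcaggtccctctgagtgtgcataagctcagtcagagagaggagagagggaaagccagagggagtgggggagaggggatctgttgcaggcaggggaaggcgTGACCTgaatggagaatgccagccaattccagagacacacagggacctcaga
C3: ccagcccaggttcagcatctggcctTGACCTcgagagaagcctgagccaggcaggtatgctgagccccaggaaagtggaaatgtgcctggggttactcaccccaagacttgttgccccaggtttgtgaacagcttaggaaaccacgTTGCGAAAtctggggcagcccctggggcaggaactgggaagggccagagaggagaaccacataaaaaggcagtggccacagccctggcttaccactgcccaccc

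On both strands, 3 motifs were searched: the nuclear receptor half-site AGGTCA, printed as its reverse complement where the match was on the other strand, which occurs in 14.1% of 33469 RefSeq promoters of that length, the C/EBP motif TTGCNNAA, in 9.22%, and the interferon response core GAAANNGAA, in 8.12%. The half-site is the repeat unit that PPARG and RXR bind in pairs. Masp1 had 1 half-site, from 52 to 47 bases before the start, and C3 had 1 from 225 to 220 bases before it. C/EBP matches stood in C3, from 104 to 97 bases before the start, and in C1r, from 83 to 76. The Cfd window held none of the 3 motifs, nor did those of Cfi and Cd55. A match is a description of letters, not a binding site, and no match says only that these letters are not in this window.

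With versus without pioglitazone in PPFP cells, 6 of the 9 genes were tested. Masp1 was called lower, against 1.31% of all genes tested, and none was called higher, against 1.11%. At any fold change 4 passed the adjusted p (Masp1 and C1s lower, Cfd and C3 higher), against 14.8% of all genes. The log2 fold changes were -1.61 ± 0.12 for Masp1, -0.58 ± 0.10 for C1s, 0.38 ± 0.04 for Cfd, 0.85 ± 0.21 for C3, -0.20 ± 0.07 for Cd59 and -0.01 ± 0.06 for C1r. Masp1 had the 31st lowest log2 fold change of 10064 genes. With the experiment number as a block, 5 of the 6 passed at any fold change, Cd59 being the addition at -0.20 ± 0.05, against 51.6% of all genes in that fit. C3 and C1s were under the 2-fold limit in these fits, and C3 did not pass the adjusted p when any 1 of the 6 libraries was left out, with values between 0.74 and 0.98, nor with DESeq2, with scaling by library size alone, with no filter, in 1 fit of the 12 libraries or with PPFP_pio replicates 2 and 3 as 1 sample (0.82). C1s did not pass it in the fit of the 12 libraries (-0.60) or without PPFP replicate 3 (-0.57). With replicates 2 and 3 as 1 sample Masp1 was still called, at -1.62, and C1s and Cfd passed at any fold change.

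The experiments can be read as pairs within a cell line, since libraries with the same number deviated together, although in PPFP cells those numbered 2 and 3 were as alike across numbers as within them. In PPFP cells the level of Masp1 with pioglitazone was 0.302, 0.304 and 0.377 times that without in experiments 1 to 3, and in EV cells 0.913, 0.789 and 0.859 times. C1s was at 0.667, 0.689 and 0.64 times in PPFP cells and at 0.834, 0.959 and 0.849 times in EV cells. Both were thus below 1 in all 6 pairs and lower in every PPFP pair than in any EV pair. Cfd was at 1.31, 1.29 and 1.29 times in PPFP cells and at 1.07, 1.05 and 0.954 times in EV cells. C3 was at 1.84, 2.17 and 1.46 times in PPFP cells and at 1.01, 0.531 and 1.13 times in EV cells. For Cfd and C3 the PPFP pairs all lay above the EV pairs.

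**Figure D4:**
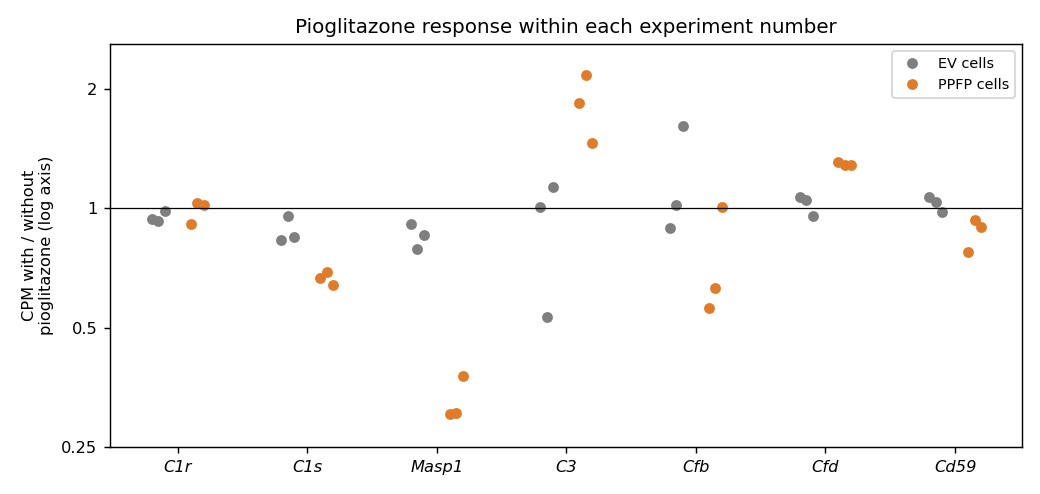
Level with pioglitazone divided by that without (log axis) for each of the 3 experiments, in EV cells (grey) and PPFP cells (orange). Masp1 in PPFP cells lies at 0.302 to 0.377 and C3 in PPFP cells at 1.46 to 2.17, while C1r lies near 1 in both lines.

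In EV cells no gene was called with versus without pioglitazone (0%, by edgeR's quasi-likelihood test, its exact test and DESeq2), and 16 of 10146 genes had an unadjusted p under 0.05. None of the 7 complement genes tested was among these, and their log2 fold changes lay between -0.203 and 0.108. The difference between the lines in the response to pioglitazone was fitted as an interaction. It was called for 0 of the 7 genes, against 0.925% of all genes, while 2 of the 7 had an unadjusted p under 0.05, against 13.3% of all genes, and DESeq2 called 1, against 1.33%. The difference, as PPFP minus EV on the log2 scale, was -1.43 ± 0.35 for Masp1, 0.92 ± 0.51 for C3, -0.42 ± 0.31 for C1s and 0.33 ± 0.14 for Cfd. With the replicate block within each cell line 1 of the 7 was called, Masp1 at -1.41 ± 0.19, against 2.57% of all genes. C1s at -0.41 ± 0.09, Cfd at 0.33 ± 0.06 and Cd59 at -0.25 ± 0.07 then also passed the adjusted p, under the 2-fold limit, against 34.3% of all genes at any fold change.

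The other genes of the pathway were taken from a list of 51 symbols. Of these, 40 were in the table, 11 of the 40 had no count, and 22 had no more than 3 counts in every library. In PPFP versus EV cells without pioglitazone 14 were tested, with 5 called higher and 3 lower, against 7.27% and 7.31% of all genes. With pioglitazone 14 were tested, with 6 called higher and 3 lower, against 9.30% and 10.4%. Serping1, Itgb2, Csmd1 and Susd4 passed the filter in these comparisons only through the line in which they were higher, so that their calls carry no weight and these counts support nothing. Their median log2 fold changes were 0.526 and 0.467. With versus without pioglitazone 1 of 14 was called in PPFP cells, Susd4, higher against 1.11% of all genes, and none lower, against 1.31%. It was also the only one that passed the adjusted p at any fold change, against 14.8% of all genes. With the replicate block 6 of 14 did so (Susd4, C8g, Csmd1, Itgb2, Clu and C1qbp), against 51.6% of all genes. In EV cells 0 of 11 were called, none had an unadjusted p under 0.05 and none passed with the block. The interaction called 0 of 15, against 0.925% of all genes. An unadjusted p under 0.05 was reached by 1, against 13.3% of all genes, and DESeq2 called 0, against 1.33%.

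The list was chosen with earlier results of these data known, and the genes named next were picked from it by their calls or levels. Their adjusted p-values are therefore a description. Among those with ample counts, C2, the substrate of C1s and the neighbour of Cfb, had the largest fall. It was at 16.3, 18.9 and 13.9 CPM in EV cells and at 1.8, 2.74 and 2.49 CPM in PPFP cells, and its log2 fold change was -2.78 ± 0.21 (edgeR adjusted p = 5.2e-05). With pioglitazone the log2 fold change was -2.86 ± 0.18 (edgeR adjusted p = 2.6e-05), and pioglitazone itself gave -0.07 ± 0.20 in PPFP cells. C2 and Cfb were thus both lower in PPFP cells. C1rl, a protease gene next to C1r, was at 1.64, 2.28 and 1.27 CPM in EV cells and at 2.53, 4.88 and 5.24 CPM in PPFP cells, with a log2 fold change of 1.30 ± 0.34 (edgeR adjusted p = 0.017).

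Serping1 encodes the C1 inhibitor, which inactivates C1r, C1s and the MASPs. It had 20, 29 and 17 counts in EV cells and 2, 1 and 1 in PPFP cells. On average it was 6.39-fold lower when each PPFP library is set to 3 counts. With pioglitazone it was 5.75-fold lower in this way, from 23, 21 and 16 counts to 0, 2 and 1. Counts above 0 can stand for levels above 3 counts, so these folds are no lower limits. The EV and PPFP libraries did not overlap. Clu, the fluid-phase inhibitor clusterin, was at 113, 126 and 109 CPM in EV cells and at 377, 363 and 354 CPM in PPFP cells, with a log2 fold change of 1.67 ± 0.09 (edgeR adjusted p = 1.3e-05).

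Csmd1 and Susd4, which encode proteins with complement control protein modules, were at or near 0 counts in EV cells. Csmd1 had no count in EV cells without pioglitazone and 31, 38 and 28 counts in PPFP cells, at least 12.3-fold higher. With pioglitazone it was 21.8-fold higher when each EV library is set to 3 counts, and EV_pio replicate 3 had 1 count. Susd4 had 2, 3 and 2 counts in EV cells and 62, 51 and 49 in PPFP cells. This was 20.5-fold higher in the same way, which is no lower limit, as the EV counts were above 0. In PPFP cells pioglitazone raised Susd4 further, from 2.27, 1.89 and 2.07 CPM to 7.18, 7.72 and 7.62 CPM, a log2 fold change of 1.86 ± 0.12 (edgeR adjusted p = 0.00049).

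Of the remaining named genes, C8g, a subunit of the membrane attack complex, fell by 1.25 on the log2 scale (SE 0.26, edgeR adjusted p = 0.0062) in PPFP versus EV cells without pioglitazone and by 1.95 (SE 0.33, adjusted p = 0.0022) with it. Cfp, which encodes the alternative pathway stabilizer properdin, was called only with pioglitazone, at 1.25 ± 0.16 (edgeR adjusted p = 0.00058), and was at 0.93 ± 0.29 without it. Whether these values differ between the conditions was tested by the interaction, which called neither. Itgb2, the beta chain of the leukocyte complement receptors, had 3, 2 and 8 counts in EV cells and 12, 14 and 14 in PPFP cells. Its log2 fold change was 1.81 ± 0.50. With each library left out it ran from 1.47, without EV replicate 2, to 2.56, without EV replicate 3. Of the macrophage and monocyte markers, Cd14 made up most of the sum and averaged 5.74 CPM in EV and 4.24 CPM in PPFP cells without pioglitazone, whereas Cd68 (0.529 and 0.945 CPM), Fcer1g (0.134 and 0.491 CPM) and Aif1 (0.0672 and 0.216 CPM) were higher in PPFP cells, as Itgb2 was. Itgam, Cd163 and Lyz2 had no count, and the part of such cells in the Itgb2 values was not tested. The calls of C1rl and Itgb2 without pioglitazone were lost when EV replicate 1, PPFP replicate 2 or PPFP replicate 3 was left out, and that of Itgb2 also without EV replicate 2. Cr1l, a membrane regulator, and C1qbp, a C1q-binding mitochondrial protein, were not called in any comparison and their groups overlapped in PPFP versus EV cells.

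**Figure D5:**
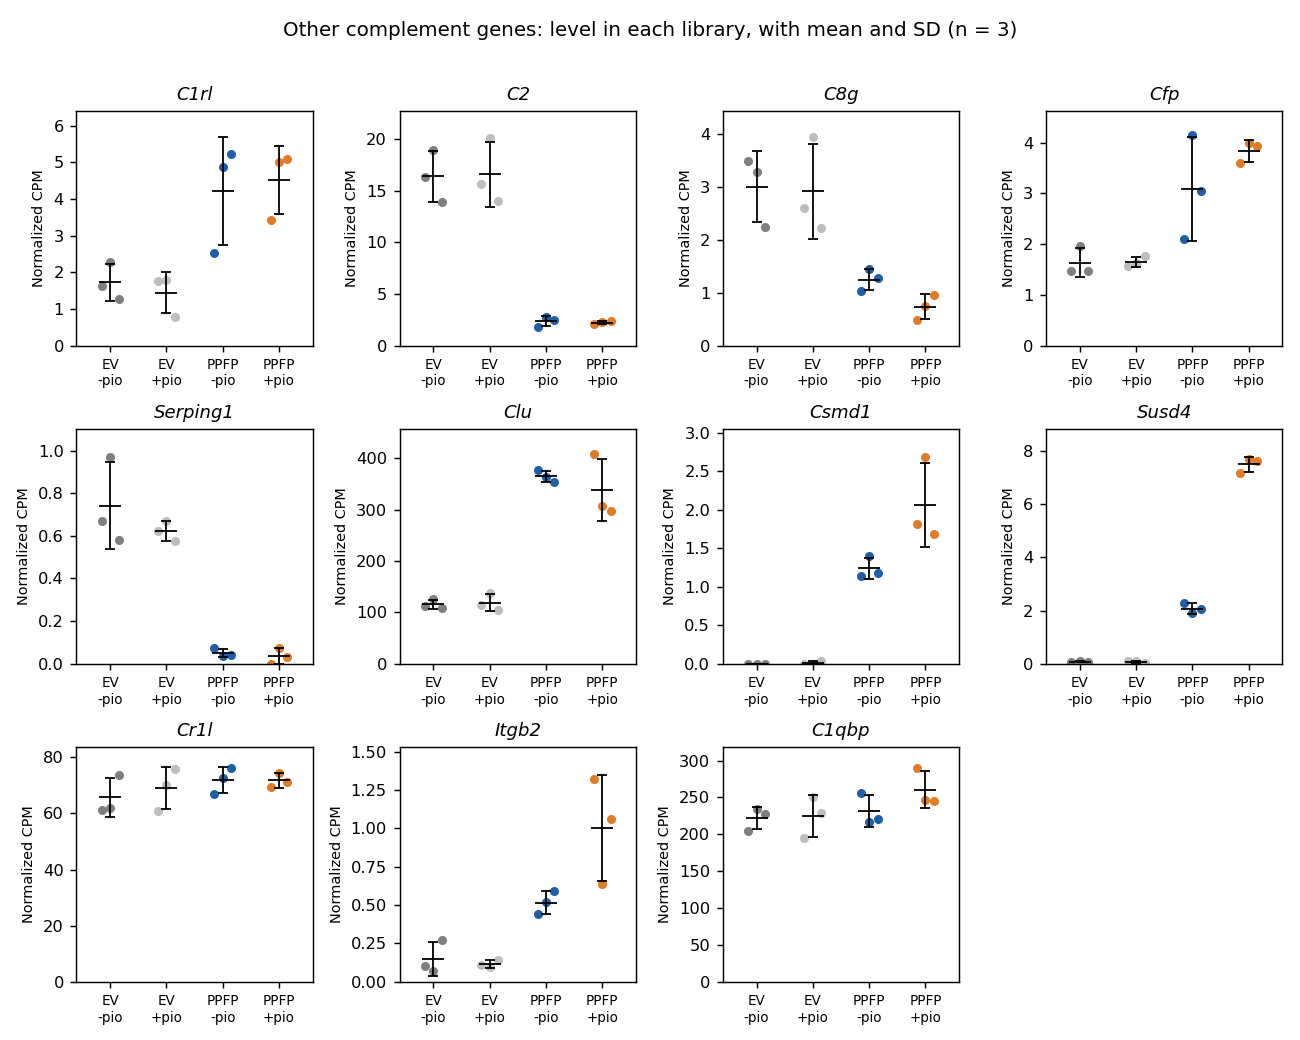
Normalized level (CPM, linear axis from 0) of 11 further complement genes in each of the 12 libraries, with the mean and SD of the 3 libraries per group. C2 and Serping1 are lower and Clu, Csmd1 and Susd4 higher in all PPFP libraries, and Susd4 reaches 7.18 to 7.72 CPM with pioglitazone.

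The genes most like Masp1 and Cfd over the 12 libraries were found by Pearson's r of log2(CPM + 0.5) among 9638 genes whose mean reached 1 CPM or more. For Masp1 they were Abcg8 (r = 0.981), which encodes a half-transporter for sterols, Ncf1 (r = 0.977), an NADPH oxidase subunit, and Cend1 (r = 0.961). For Cfd they were Fetub (r = 0.999), Mfap5 (r = 0.999) and Gulo (r = 0.998). The 12 points share their group structure, so these r values are a description of pattern. Gulo, the last enzyme of vitamin C synthesis in the rat, was at 0.101 CPM on average in EV cells, 183 CPM in PPFP cells and 297 CPM in PPFP cells with pioglitazone. Between the complement genes themselves, r was 0.921 for C1r with C1s, 0.993 for C1r with Cfd and -0.889 for Cfb with Cfd.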

How the data were processed

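RNA of 12 libraries was sequenced with a kit that does not mark strand. According to the submitters' processing notes, the authors aligned reads to rn4 with TopHat2 2.0.11 and counted them with HTSeq 0.6.1p1, by the paper's methods in the strict intersection mode, and the deposited table holds raw counts by gene symbol, of which 3447 of 16816 symbols had none. The deposited peak lists of 1 ChIP library and its input have rn4 positions without gene names and were not used here.

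Counts were filtered with filterByExpr, scaled by TMM (factors 0.9262 to 1.051) and tested with edgeR 4.0.16 (quasi-likelihood, Benjamini-Hochberg over all genes tested) in R 4.3.3, on the 6 libraries of the 2 groups compared, or all 12 for the interaction. The scripts were tested on simulated data. SEs were derived by dividing each log2 fold change by the square root of F. CPM used TMM factors over the 12 libraries. The biological coefficient of variation was 0.126 to 0.156. Within each cell line, same-numbered libraries deviated together (r of 0.652 to 0.905 over genes) and were treated as pairs, but in PPFP cells numbers 2 and 3 also correlated across numbers (0.742 and 0.6), so these are not told apart. Between lines the signs were mixed, from -0.516 to 0.46. The series describes replicates as independent experiments. Replicates 2 and 3 of PPFP cells with pioglitazone differed little (chi-square per gene of 1.7), and summing them was added as an alternative after the data were seen.

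The complement genes and lists were chosen with earlier results of these data known. Named were the 9 genes, listed complement genes called in a pairwise comparison or averaging 10 CPM or more, the 3 genes most like Masp1 and Cfd, and Pparg and Pax8. Alternatives were edgeR's exact test, DESeq2 1.42.0, RLE or no scaling factors, no filter, at least 10 counts in every library, 1 fit of 12 libraries, the replicate block and each library left out. RefSeq gene entries matched all 9 genes and promoters matched 6. Figures used matplotlib 3.10.9.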

Additional observations from a re-analysis of the deposited data

How the results depend on the processing

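For 49 pairs of a complement gene and a comparison, the log2 fold changes were recomputed under each alternative. Of these values 675 kept their sign and side of the adjusted p threshold, 34 fell below it and 15 passed it, and 2 uncalled values changed sign (in PPFP cells with versus without pioglitazone, C1r to 0.03 without PPFP_pio replicate 1, within a range of -0.06 to 0.03 when a library was left out, and C2 to 0.04 without PPFP replicate 2, within -0.25 to 0.04). Judged by adjusted p and fold change together, 698 kept their call and 28 did not. In EV cells the log2 fold changes of the 7 tested complement genes, and of Cfi with no filter, under pioglitazone lay between -0.54 and 0.31 over all alternatives and were never called. With at least 10 counts required in every compared library, in PPFP versus EV cells without pioglitazone 983 genes and 4 of the other complement genes were called, and with pioglitazone 2 of the 9 complement genes and 5 of the others, since C3, Cfb and other low genes left the test and C1s was at 0.99, under the 2-fold limit. With pioglitazone C1s was likewise uncalled at 0.99 with no filter and at 1 in the fit of 12 libraries. The share of all genes called with at least 10 counts required is not given here, so the numbers called there support nothing. With each library left out, between 160 and 296 genes were called for pioglitazone in PPFP cells, the lowest without PPFP replicate 3, and between 52 and 105 for the interaction. The interaction called 1 of the 9 complement genes with DESeq2 and 0 to 1 when a library was left out (1 without EV replicate 1 or EV_pio replicate 2). The replicate block within each cell line called 269 genes and 1 of the 9 for the interaction. Between lines, where the numbers did not pair the libraries, the block with -1.21 lost the call of Cfb without pioglitazone, as DESeq2 did with -1.24. The call of Cd59 at any fold change without pioglitazone was lost without EV replicate 1 or PPFP replicate 3. Masp1 with pioglitazone passed the adjusted p with the exact test, in the fit of 12 libraries and without EV_pio replicate 1 (1.02). C1s under pioglitazone in PPFP cells did not pass in the fit of 12 libraries or without PPFP replicate 3. With PPFP_pio replicates 2 and 3 summed as 1 sample, an alternative chosen after seeing the data, the interaction called 60 genes and none of the 9. By library size alone the mean of Cfd in PPFP cells with pioglitazone was 881 CPM. The cause of these shifts was not tested beyond the filter. C3 and Cfb rest on 5 to 43 counts per library. Peak settings were not run.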

Other observations

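Among listed complement genes that passed the filter in neither comparison of the lines, and chosen here after their values were seen, C6 and C1qc had counts in 1 line only or nearly so. C6, a component of the membrane attack complex, had 0, 2 and 0 counts in EV cells, none in EV cells with pioglitazone, 10, 19 and 13 in PPFP cells, and 10, 11 and 6 in PPFP cells with pioglitazone. C1qc, a chain of C1q, had 8, 10 and 5 counts in EV cells, 9, 7 and 6 in EV cells with pioglitazone, 0, 1 and 0 in PPFP cells, and 0, 1 and 2 in PPFP cells with pioglitazone. In neither of the comparisons between lines were these counts tested. With versus without pioglitazone in PPFP cells C6 was tested, at -0.72 ± 0.40 on the log2 scale (edgeR adjusted p = 0.3).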
